A study of Mus musculus with 14 samples.

Results

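CD25lo Tregs were compared with CD25hi Tregs in 5 of the 14 RNA-seq libraries of the series, 3 of CD25hi and 2 of CD25lo cells, chosen by their labels as WT Tregs separated by the level of CD25 on the cell surface. Tregs are the CD4 T cells that restrain immune responses, and CD25 is the α chain of their receptor for the cytokine IL-2. Both groups came from untreated mouse spleen pooled with inguinal, axillary and brachial lymph nodes of adult mice, with no age given for single libraries. The labels call both groups WT. The study's WT controls are miR-15/16 wt/wt Foxp3Cre mice, in which the miR-15/16 clusters are intact and a fusion of YFP and Cre is expressed from the Foxp3 locus, and the FOXP3-YFP reporter of these mice was used to sort both groups. The labels call the libraries biological replicates but do not tie them to single mice, nor do they say whether a CD25hi and a CD25lo library came from the same mice. The other 9 libraries, of bulk WT and bulk miR-15/16 cKO Tregs, entered the fit only to estimate the spread between libraries.

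IL-2 binds a complex of the α chain (CD25, Il2ra), the β chain (Il2rb) and the common γ chain (Il2rg). The kinases JAK1 and JAK3 sit on the β and γ chains and activate the transcription factor STAT5, which in Tregs supports Foxp3 and Il2ra themselves and induces feedback inhibitors such as CISH and SOCS2. Tregs of lymphoid tissue include resting cells, which rely on IL-2 for their upkeep, and effector cells, which also use other signals. The comparison asks how the transcriptome of otherwise normal Tregs differs with the amount of this receptor chain.

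Values are normalized counts, reads per gene divided by a size factor of the library. Libraries held 31151860 to 35226685 reads in genes. Across 5819 genes with a mean of at least 1000 normalized counts, libraries of the same group correlated at 0.976 to 0.987 and libraries of different groups at 0.962 to 0.978 on a log2 scale, a description over genes, which are not replicates. Of 8 genes that define Tregs and CD4 T cells, which were abundant in every library, 2 were called, both lower (Foxp3 and Ikzf2), with Cd3e at 32137 to 40063 and Cd4 at 35747 to 42614 normalized counts. Of 45 tested markers of B cells, myeloid cells, CD8 T and NK cells, erythroid cells, stroma and MHC class II presentation, 0 were called with limma (8 at an unadjusted p under 0.05, 0 with edgeR and 4 with DESeq2). Ms4a1 and Ebf1 were listed at 0 in all 5 libraries, Cd8a reached at most 25.5 and Lyz2 at most 71.7 normalized counts. Other markers were higher, with Cd8b1 at 266.9 to 575.0, Nkg7 at 237.3 to 598.9, C1qc at up to 543.0 and Igkc at up to 496.8. Summed markers of CD8 T, NK and innate T cells were at 1725.2 to 2086.5 normalized counts in CD25hi and 1591.2 to 1879.4 in CD25lo libraries. The summed level of the myeloid and dendritic cell markers was 1588 to 2487 normalized counts in CD25hi and 2181 to 2889 in CD25lo libraries, with Csf1r highest in CD25lo replicate 2, at 659.0, and the part of such RNA in the results was not tested. Summed B cell markers were at 14057 to 15376 normalized counts in CD25hi and 13880 to 14239 in CD25lo libraries, most of it Ighm.

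A gene was called when limma's test gave a Benjamini-Hochberg adjusted p under 0.05 across 13988 genes that reached 10 normalized counts in any 2 of the 5 libraries. By this rule 278 genes differed between the groups, which is 1.99% of the genes tested. CD25lo Tregs were lower for 177 genes (1.27%) and higher for 101 (0.722%). Fold changes are given as CD25lo minus CD25hi on log2(normalized count + 1), with the standard error (SE) of the fit. Most changes were modest, with a median log2 fold change of -0.81 among genes called lower and 0.67 among genes called higher, against a median of 0.018 over all genes tested. A change of more than 2-fold was found for 69 of the lower and 25 of the higher genes. Of the genes called lower, 18 had a CD25lo library listed at 0, and 8 of these had both. Of the genes called higher, 5 had a CD25hi library listed at 0. Genes at 0 in both CD25lo libraries passed the filter through CD25hi alone. Their direction followed from the filter, and their fold depends on the added count of 1. The calls lay mostly among abundant genes, with 110 of the lower and 75 of the higher genes at a mean of 1000 normalized counts or more. In each of the 278 called genes the groups did not overlap, which was also the case for 27.7% of all genes tested. With 2 libraries against 3, an exact permutation test of 1 gene cannot go below p = 0.1, so every p given here comes from the model across genes. In RNA from whole populations, fewer cells expressing a gene and less RNA of it per cell cannot be told apart.

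**Figure D1:**
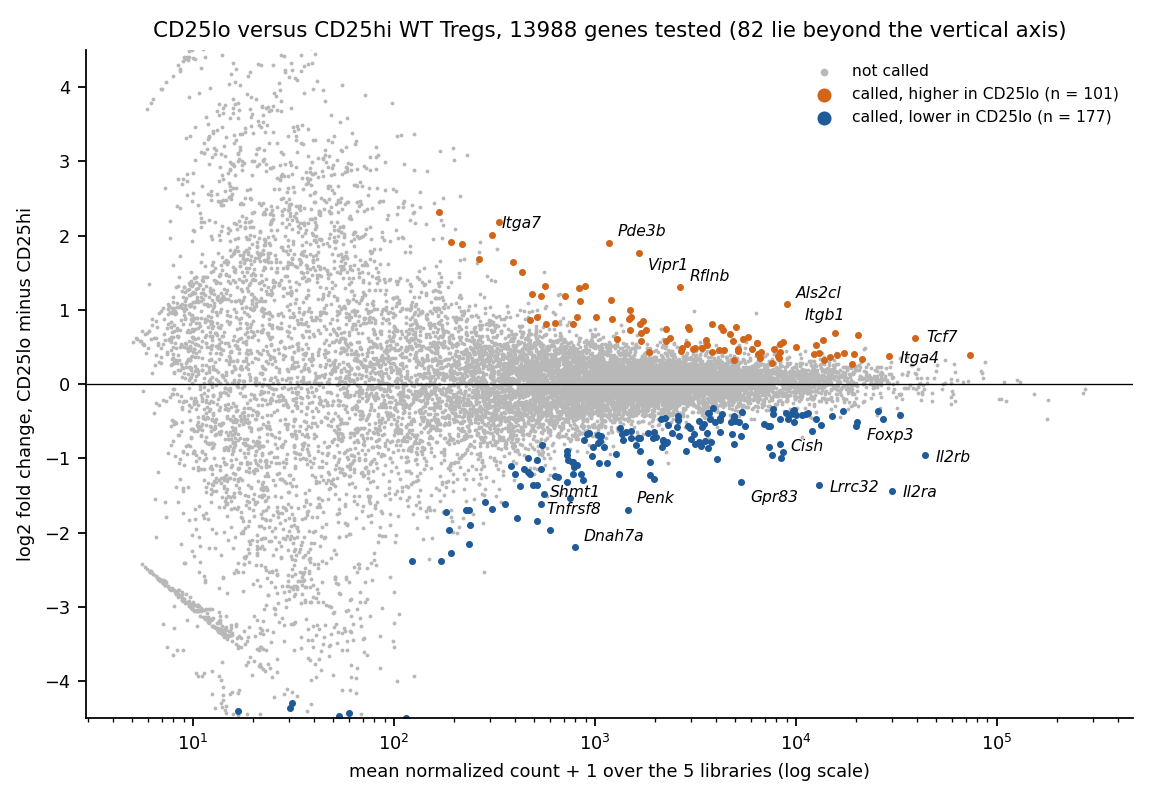
Mean normalized count + 1 over the 5 libraries (horizontal axis, log scale) against the log2 fold change of CD25lo over CD25hi Tregs (vertical axis) for 13988 genes, with 101 called higher genes in orange and 177 called lower genes in blue. Il2ra, Il2rb and Lrrc32 are the most abundant genes with a decrease near or beyond 2-fold, and Tcf7 is the second most abundant of the genes that rose.

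The largest decreases among abundant genes were found in a mixed set of surface, enzyme and secreted genes. After the rule for named genes, 12 called genes with a mean of at least 500 normalized counts were taken in each direction. Dnah7a, a dynein heavy chain of motile cilia, led the decreases, with 1252, 1166 and 1046 normalized counts in CD25hi and 210.0 and 297.7 in CD25lo libraries (log2 fold change -2.20, SE 0.23, adjusted p = 7.2e-05). Pla2g4f, a cytosolic phospholipase A2, fell by 1.96 and Tnfrsf8, which encodes the TNF receptor CD30, by 1.84 on the log2 scale. Penk, the precursor of enkephalin peptides, was at 1906, 2022 and 2142 normalized counts in CD25hi and at 591.9 and 662.1 in CD25lo Tregs. Shmt1, which makes one-carbon units from serine, was at 692.6 to 819.0 against 220.0 and 262.8 normalized counts (log2 fold change -1.61, SE 0.24). The tyrosine kinase Src varied more, with 666.1, 1448 and 911.4 normalized counts in CD25hi and 214.6 and 505.6 in CD25lo libraries, and its call was lost without CD25hi replicate 2 (adjusted p = 0.0877), CD25hi replicate 3 (0.0585) or CD25lo replicate 1 (0.233).

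Lrrc32 encodes GARP, which holds latent TGF-β on the Treg surface, and it combined a high level with a large decrease. It was at 19648, 15990 and 16057 normalized counts in CD25hi and at 7543 and 5923 in CD25lo libraries, a log2 fold change of -1.36 (SE 0.13, adjusted p = 2.1e-05). Every CD25hi library was thus at more than 2-fold the level of either CD25lo library. Gpr83, a G protein-coupled receptor abundant in Tregs, was at 6687 to 7403 against 2794 and 2877 normalized counts. Nlgn2, a neuroligin, the glutathione transferase Gsta4 and the membrane protein Plp2 completed the set together with Il2ra, at log2 fold changes of -1.48, -1.35 and -1.32. Dnah7a, Pla2g4f, Tnfrsf8, Shmt1, Nlgn2, Lrrc32 and Gpr83 were still called with any 1 of the 5 libraries left out. Penk was not called without CD25lo replicate 1 (adjusted p = 0.0709) or CD25lo replicate 2 (0.0772), Gsta4 without CD25hi replicate 3 (0.0757) or CD25lo replicate 2 (0.197), and Plp2 without CD25lo replicate 2 (0.0652).

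A pair of genes of cyclic AMP signaling had the largest increases in CD25lo Tregs among called genes with a mean of at least 500 normalized counts. Pde3b, a phosphodiesterase that breaks down cyclic AMP, was at 391.2, 922.8 and 448.4 normalized counts in CD25hi and at 1871 and 2226 in CD25lo libraries (log2 fold change 1.90, SE 0.29, adjusted p = 0.0026). Vipr1, a receptor for vasoactive intestinal peptide that raises cyclic AMP, was at 733.7, 767.0 and 1038 against 2585 and 3156 normalized counts (log2 fold change 1.77, SE 0.24, adjusted p = 0.0011). Rapgef4, an exchange factor for RAP1 that is opened by cyclic AMP, rose by a log2 fold change of 1.33, with CD25hi replicate 2 the lowest library at 325.9 and CD25lo replicate 2 the highest at 1456 normalized counts. The filamin-binding gene Rflnb was at 1398 to 2060 in CD25hi and at 4404 and 3866 normalized counts in CD25lo libraries (log2 fold change 1.31, adjusted p = 0.0018). Als2cl was the most abundant gene of the set, at 5446 to 7675 against 12937 and 13361 normalized counts. Further increases were found for Enc1, an actin-binding protein (1.30), the IL-9 receptor chain Il9r (1.19), the transcriptional cofactor and phosphatase Eya2 (1.19), Tdrp (1.12) and the protease-activated receptor F2rl1 (0.99).

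Some of these increases rest on gene models that share bases, and the strand setting of the counting was not given in the sources used here. Tmie, with a log2 fold change of 1.33, overlaps Als2cl, at a mean of 9041 normalized counts, on the opposite strand by 244 bases on chromosome 9, and Gm45552 (1.13) is an antisense RNA. Without strand, their reads cannot be told apart from those of the opposite strand. Shmt1 shares 184 bases with Smcr8 and Plp2 246 bases with Prickle3 in the same way. Pde3b, Vipr1, Rflnb, Gm45552 and F2rl1 were still called with any 1 library left out. The calls of Rapgef4, Tmie, Enc1, Il9r, Eya2, Tdrp and Als2cl were lost without CD25lo replicate 2 (adjusted p = 0.0633 to 0.295), and all of these but Enc1 were also lost without at least 1 other library, at up to 0.164. Of the 24 genes, 23 were called with edgeR and 24 with DESeq2, both fitted to all 14 libraries. On the 5 CD25-sorted libraries alone, limma called 17 of them, without Rapgef4, Tmie, Il9r, Eya2, Tdrp, Src and Gsta4.

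**Figure D2:**
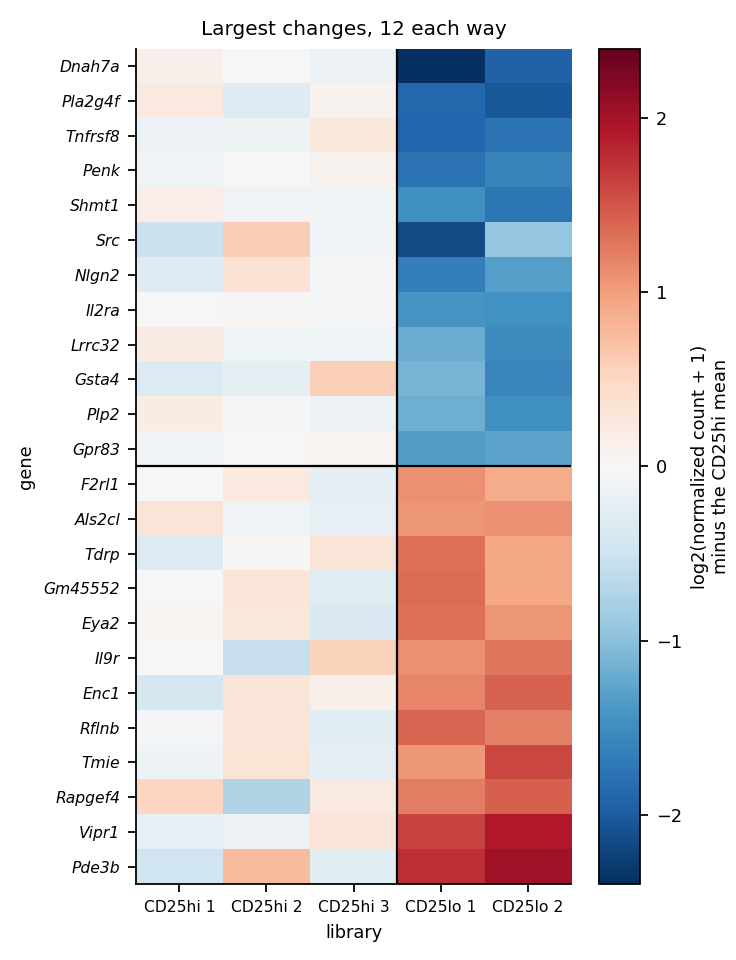
The 24 genes of both directions (rows) in the 5 libraries (columns), coloured by log2(normalized count + 1) minus the mean of the 3 CD25hi libraries. Both CD25lo libraries lie on the same side of all 3 CD25hi libraries for each gene, and Src, Rapgef4 and Pde3b vary most among the CD25hi libraries.

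The mRNA of the sorted receptor chain followed the gate. Il2ra, on chromosome 2, was at 39725, 41188 and 39583 normalized counts in CD25hi and at 15026 and 14682 in CD25lo libraries, a log2 fold change of -1.43, which checks the labels and is not a finding. Among the other parts of the receptor and its kinases, Il2rb was the only gene called with limma and edgeR, and DESeq2 called Stat5a as well. Il2rb was at 55683, 53120 and 54301 normalized counts in CD25hi and at 28061 and 28143 in CD25lo libraries (log2 fold change -0.95, SE 0.07, adjusted p = 2.3e-06). The mean of Il2rb in CD25lo was 0.517 of that in CD25hi libraries, and the gene was still called with any 1 library left out. The γ chain Il2rg, shared with the receptors for IL-7 and other cytokines, was at 13574 to 14548 against 14467 and 15339 normalized counts, so that the groups overlapped.

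The kinases and STAT5 genes did not pass the test with limma. Jak1 had a log2 fold change of 0.16 (SE 0.07, adjusted p = 0.29), Jak3 of -0.10 (SE 0.09, adjusted p = 0.65) and Stat5b of 0.06 (SE 0.07, adjusted p = 0.73). Stat5a was at 5080, 5363 and 5530 normalized counts in CD25hi and at 3777 and 4047 in CD25lo libraries. The gene had a log2 fold change of -0.44 (SE 0.13) and an adjusted p of 0.081 with limma and 0.088 with edgeR but was called with DESeq2 (adjusted p = 0.026), the groups did not overlap, and it shares 72 bases with Stat3 on the opposite strand. Il7r, the α chain of the IL-7 receptor CD127, was at 5355 to 7094 against 7797 and 8134 normalized counts, a log2 fold change of 0.42 that did not pass either (SE 0.15, adjusted p = 0.19).

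**Figure D3:**
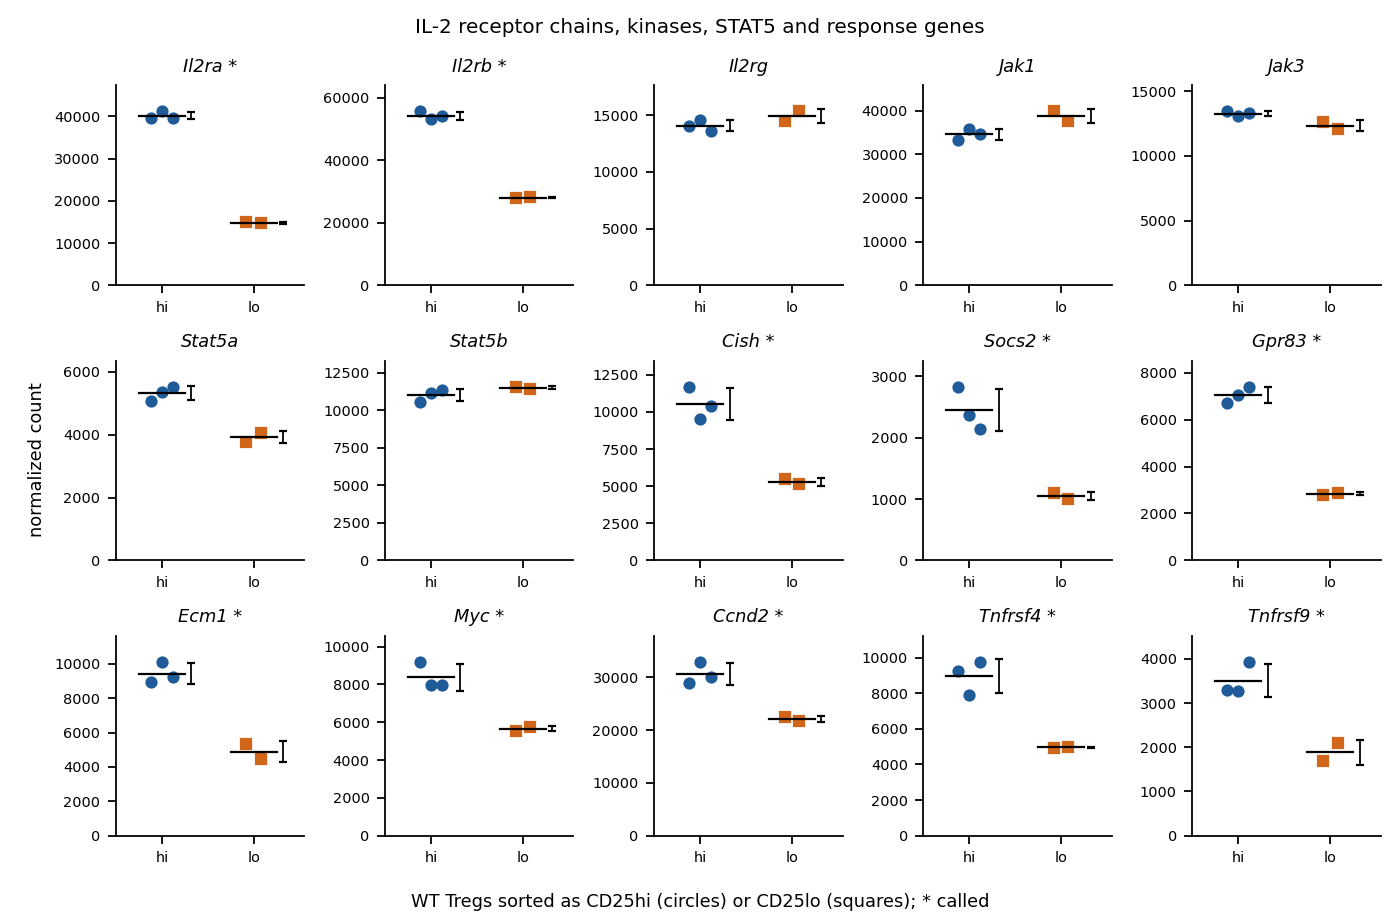
Normalized counts (vertical axes, from 0) in the 3 CD25hi libraries (circles) and 2 CD25lo libraries (squares) for IL-2 receptor chains, their kinases, STAT5 genes and 8 response genes, with the mean as a line and the SD as a bar. Stars mark called genes, and the groups overlap for Il2rg but not for the called genes.

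Of 30 genes known to respond to IL-2 and STAT5, all of which were tested, 12 were called lower in CD25lo Tregs and 0 higher with limma (2 higher at an unadjusted p under 0.05, 0 with edgeR and 1 with DESeq2). This is 40.0% of the list against 1.27% of all genes called lower. Socs2, Ecm1, Gpr83 and Myc of this list were named from these same libraries in earlier work. The count is therefore not independent evidence of a direction. The other 18 did not pass with limma. Called lower were 11 genes with edgeR, 15 with DESeq2 and 14 with limma on the 5 CD25-sorted libraries alone. Of the 30 genes, 7 had a log2 fold change above 0, and the median log2 fold change was -0.49 against 0.018 over all genes. The feedback inhibitor Cish was at 11709, 9560 and 10381 normalized counts in CD25hi and at 5467 and 5118 in CD25lo libraries (log2 fold change -0.99, SE 0.12, adjusted p = 4.6e-04). Socs2, a second inhibitor of this pathway, was at 2830, 2371 and 2146 against 1092 and 997.1 normalized counts. The matrix protein gene Ecm1 was at 8937, 10121 and 9236 against 5307 and 4458. For each of these 3 genes every CD25hi library was above both CD25lo libraries.

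The remaining calls of this list were smaller and less stable. They were of 4 receptors of the TNF family, Tnfrsf4 (OX40), Tnfrsf9 (4-1BB), Tnfrsf18 (GITR) and Tnfrsf1b (TNFR2), at log2 fold changes of -0.85, -0.89, -0.56 and -0.51, of the TNF family ligand Lta (-0.74), the actin-capping gene Capg (-0.70), and the growth genes Myc (-0.57) and Ccnd2 (-0.46). Tnfrsf4 was at 9229, 7894 and 9761 normalized counts in CD25hi and at 4946 and 4974 in CD25lo libraries. Gpr83, Cish, Ecm1 and Socs2 were still called with any 1 library left out. The other 8 were lost without CD25lo replicate 1 (adjusted p = 0.0629 to 0.25) and also without CD25lo replicate 2 (0.0694 to 0.194), and 7 of them, all but Myc, also without CD25hi replicate 3 (0.0616 to 0.136). Bcl2, a survival gene in the same list, was at 18319 to 18896 against 14465 and 12967 normalized counts and did not pass with limma (adjusted p = 0.079). It was called with DESeq2 (adjusted p = 0.014) and with limma on the 5 CD25-sorted libraries alone (0.011).

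Promoters of these genes, taken from RefSeq on GRCm38.p6 as 250 bases before to 50 bases after the gene start, were searched for TTCNNNGAA, the palindromic motif of STAT5. A promoter was found for 10021 of the 13988 genes tested. The motif was present for 8.34% of these 10021 genes, for 12.6% of the 143 called lower genes with a promoter, for 10.5% of the 76 called higher genes, and for 7 of 24 genes of the IL-2 and STAT5 list. Among 9 genes of the list that were called lower and had a promoter, 5 held it. Their windows are shown on the strand of the gene with the motif in capitals, since they are the response genes whose decrease is described above, and the match alone does not say that STAT5 binds there.
Cish, chr9:107296649-107296678: ccgcccagttTTCCTGGAAagTTCTTGGAA
Tnfrsf9, chr4:150927853-150927882: caacagctgaTTCCAAGAAacccttcagag
Tnfrsf18, chr4:156026213-156026242: tgctctacacTTCACAGAAggcctttacaa
Tnfrsf1b, chr4:145247032-145247061: agcgcattcaTTCCCGGAAgagatgctgga
Lta, chr17:35205484-35205513: accatcactcTTCAGGGAAccaggcttcca
Lta, chr17:35205348-35205377: ccgactccctTTCCCAGAAcgcagtagtct
The window of Cish holds the motif in a pair, the first copy beginning at the RefSeq start. The motif began 136 bases before the start in Tnfrsf9, 99 in Tnfrsf18, 181 in Tnfrsf1b, and 152 and 16 in Lta. Cish, Tnfrsf9 and Tnfrsf18 are on the plus strand, and Tnfrsf1b and Lta on the minus strand. GTAAACA, a forkhead motif read on both strands, was present for 3.18% of all promoters, 6.99% of called lower and 6.58% of called higher genes, and for 4 of 24 genes of the IL-2 and STAT5 list (16.7%, against 29.2% with the STAT5 motif). CTTTGAA or CTTTGAT, a motif of TCF1 and LEF1, was present for 7.27%, 9.79% and 9.21% in the same order, and for 2 of 24 genes of the list. No test was made of any of these shares.

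Of 30 Treg signature genes, which set Tregs apart from other CD4 T cells, 17 were called lower and 0 higher with limma (1 higher at an unadjusted p under 0.05, 0 with edgeR and 0 with DESeq2). This is 56.7% of the list against 1.27% of all genes called lower, the other 13 did not pass, and the median log2 fold change was -0.69. Several of these genes were named from these same libraries in earlier work, so that the count is not independent evidence of a direction, and 8 genes stand in both this and the IL-2 list, of which 7 were called. Foxp3 was at 24370, 21788 and 22394 normalized counts in CD25hi and at 16298 and 14546 in CD25lo libraries (log2 fold change -0.57, SE 0.08, adjusted p = 0.0018). Every CD25hi library was above both CD25lo libraries for Foxp3, which was still called with any 1 library left out. The Ikaros family gene Ikzf4, which encodes Eos, was at 9786 to 10551 against 5296 and 6326 normalized counts (log2 fold change -0.80, adjusted p = 0.0011), and Ikzf2, which encodes Helios, at 27390 to 28926 against 21398 and 22455 (-0.36, adjusted p = 0.025).

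Among genes by which Tregs suppress, 3 of 20 tested were called (15%, against 1.99% of all genes). All were lower, and these were Lrrc32, Penk and Entpd1. Penk was named from these same libraries in earlier work, so the count is not fully independent evidence of a direction. Entpd1 encodes CD39, which splits extracellular ATP, and was at 1881, 1556 and 1370 normalized counts in CD25hi and 888.3 and 1121 in CD25lo libraries (log2 fold change -0.67, SE 0.16, adjusted p = 0.039). Tgfb1 had a log2 fold change of -0.23 (adjusted p = 0.11 with limma and 0.031 with DESeq2). Ctla4, the inhibitory receptor that takes up CD80 and CD86, was at 16236, 12226 and 12223 against 11204 and 8536 normalized counts, without overlap. Its log2 fold change of -0.46 (SE 0.30) did not pass (adjusted p = 0.49, and 0.14 with limma on the 5 CD25-sorted libraries alone). The SE draws on all 14 libraries, and the bulk WT libraries varied widely for this gene. Of 27 receptors for other cytokines, 1 was called higher (Il9r) and 1 lower (7.41% called). The latter was Tgfbr1, a chain of the TGF-β receptor, at 4202 to 4684 against 2612 and 2281 normalized counts (log2 fold change -0.86, adjusted p = 7.5e-04). Plagl1 (-1.21), Izumo1r (-0.50), which encodes folate receptor 4, and Igf2r (-0.42) were also called. Ikzf2, Entpd1, Izumo1r and Plagl1 were lost without CD25lo replicate 1 (adjusted p = 0.142 to 0.354), Ikzf2, Entpd1, Izumo1r and Igf2r without CD25lo replicate 2 (0.0652 to 0.255), and each of the 5 without at least 1 CD25hi replicate (0.059 to 0.136).

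Tcf7 was the most abundant gene of the resting Treg and naive T cell list that rose in CD25lo Tregs. It encodes TCF1, a transcription factor of resting and memory-like T cells, and was at 32010, 34928 and 29964 normalized counts in CD25hi and at 50655 and 48916 in CD25lo libraries (log2 fold change 0.63, SE 0.09, adjusted p = 0.0017, and called with any 1 library left out). Of the 25 genes of that list, 3 were called higher and 1 lower, with a median log2 fold change of 0.20. This is 16% called, against 1.99% of all genes. The 2 others that rose were the actin crosslinker Actn1, at 11058 to 11632 against 16950 and 17194 normalized counts, and Rapgef4. Myb, which encodes a transcription factor of lymphocyte progenitors, fell from 2834, 2453 and 2958 to 1543 and 1660 normalized counts (log2 fold change -0.78, adjusted p = 0.029). Actn1 was lost without CD25lo replicate 1 (adjusted p = 0.0527) or CD25lo replicate 2 (0.0967), Rapgef4 without CD25hi replicate 2 (0.0716), CD25hi replicate 3 (0.0501), CD25lo replicate 1 (0.0864) or CD25lo replicate 2 (0.216), and Myb without CD25hi replicate 1 (0.0781), CD25hi replicate 3 (0.0918), CD25lo replicate 1 (0.139) or CD25lo replicate 2 (0.129).

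Other genes of resting T cells did not pass the test with limma. Ccr7, a receptor for homing to lymph nodes, had a log2 fold change of 0.18 (SE 0.21, adjusted p = 0.74). Its groups did not overlap, and limma on the 5 CD25-sorted libraries alone did not call it either (adjusted p = 0.45). Lef1, the partner of TCF1, was at 13645 to 14451 in CD25hi and at 18650 and 16461 normalized counts in CD25lo libraries without overlap, and did not pass (log2 fold change 0.32, SE 0.13, adjusted p = 0.24). Dapl1, at 102.9 to 238.7 against 449.2 and 683.3 normalized counts, did not pass either (adjusted p = 0.074) but was called with DESeq2 (adjusted p = 0.011).

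Effector genes changed in both directions. Of 40 effector Treg genes, 1 was called higher and 3 lower, with a median log2 fold change of 0.22. This is 10% called, against 1.99% of all genes. Cxcr3, the chemokine receptor of type 1 responses, was at 1224 to 1570 in CD25hi and at 2127 and 2577 normalized counts in CD25lo libraries (log2 fold change 0.72, SE 0.17, adjusted p = 0.034). Ccr6, the receptor for CCL20, went the other way, with 1163, 755.8 and 986.8 against 488.3 and 433.0 normalized counts (log2 fold change -1.05, SE 0.20, adjusted p = 0.0096). Vim, the intermediate filament vimentin, fell by 0.37 on the log2 scale. Rora (0.74, adjusted p = 0.08) and Ccr4 (0.51, adjusted p = 0.098) did not pass with limma. Rora was called with DESeq2 (adjusted p = 0.013) and with limma on the 5 CD25-sorted libraries alone (0.020). Itgae, which encodes CD103, was at 4267 to 4486 against 2501 and 2765 normalized counts and did not pass with limma either (adjusted p = 0.099). Pdcd1, which encodes PD-1, overlapped between the groups, at 1480 to 2058 against 1535 and 1822 normalized counts (log2 fold change -0.11, SE 0.22, adjusted p = 0.87). Cxcr3 was lost without CD25hi replicate 1, CD25hi replicate 2, CD25lo replicate 1 or CD25lo replicate 2 (adjusted p = 0.0644, 0.111, 0.0527 and 0.294), Ccr6 without CD25lo replicate 2 (0.0938), and Vim without CD25hi replicate 1, CD25hi replicate 3, CD25lo replicate 1 or CD25lo replicate 2 (0.0874, 0.0831, 0.204 and 0.0558).

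Few genes of helper and follicular T cells were called with limma. Cd40lg, the ligand by which CD4 T cells help B cells, rose from 1240, 1065 and 1012 to 2090 and 1969 normalized counts (log2 fold change 0.88, SE 0.15, adjusted p = 0.0049) and was called with any 1 library left out. Of 25 follicular T cell genes, 3 were called higher and 1, Izumo1r, lower with limma (16% called, against 1.99% of all genes). DESeq2 called 6 higher and 1 lower, and edgeR 2 higher and 1 lower. At an unadjusted p under 0.05 with limma, 9 were higher and 3 lower. The log2 fold change was above 0 for 17 of the 25, with a median of 0.23. Those called higher with limma were Cd84, a SLAM family receptor (log2 fold change 0.33), Pou2af1, at 98.5 to 160.9 against 293.7 and 625.7 normalized counts, and Il4. Il4 was at 0, 0 and 1.0 in CD25hi and at 37.3 and 24.2 normalized counts in CD25lo libraries, an amount close to the lower end of what was tested (adjusted p = 0.015). It passed the filter through the CD25lo libraries alone, so its direction followed from the filter. With limma on the 5 CD25-sorted libraries alone it was not called (adjusted p = 0.48). Bcl6, the repressor that defines follicular cells, was at 1071 to 1368 against 1639 and 1787 normalized counts. It did not pass with limma (adjusted p = 0.074) but was called with DESeq2 (adjusted p = 0.039). Il4, Cd84 and Pou2af1 were lost without CD25lo replicate 2 (adjusted p = 0.0652, 0.108 and 0.327), Il4 and Cd84 without CD25lo replicate 1 (0.071 and 0.205), Pou2af1 without CD25hi replicate 1 (0.0802), Cd84 without CD25hi replicate 2 (0.113), and Pou2af1 and Cd84 without CD25hi replicate 3 (0.0516 and 0.109).

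Across 20 tested chemokine receptors and recirculation genes and 21 T helper lineage genes, Cxcr3 and Ccr6 were the only calls with limma. This is 10% and 9.52% of these lists, against 1.99% of all genes. Among 12 cytokine genes of conventional CD4 T cells Cd40lg and Il4 were higher and Lta lower (25% called). Of these, Il4 passed the filter through the CD25lo libraries alone. Of 28 costimulatory and coinhibitory receptors, Cd84 was higher and the 4 TNF family receptors lower (17.9% called). Of 37 transcription factors, 4 were called with limma (10.8%), all lower (Ikzf4, Myc, Ikzf2 and Myb). These 4 genes were named from these same libraries in earlier work, so the count is not independent evidence of a direction. DESeq2 called 4 lower and 2 higher, Bcl6 among the latter (adjusted p = 0.039). On the 5 CD25-sorted libraries alone, limma called 4 lower and 1 higher.

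Of 18 integrin genes tested, 4 were called with limma, all higher in CD25lo Tregs (22.2% against 0.722% of all genes called higher). Itgb1 and Itga7 of this list were named from these same libraries in earlier work, so the count is not independent evidence of a direction. DESeq2 called 4 higher and 2 lower, and limma on the 5 CD25-sorted libraries alone 3 higher and 1 lower, with Itgae among the lower genes (adjusted p = 0.024 and 0.0045). Itgb1, the β1 chain, was at 12494, 11685 and 13857 normalized counts in CD25hi and at 19516 and 21167 in CD25lo libraries (log2 fold change 0.68, SE 0.14, adjusted p = 0.017). Its partner Itga4, the α4 chain, was at 25442 to 26670 against 33128 and 34384 normalized counts (0.38, adjusted p = 0.016). Itgb3 was tight within groups, with 2924, 2950 and 2923 against 5015 and 5290 normalized counts (0.81, adjusted p = 0.0071), and Itga7, a low gene, was at 72.3 to 201.7 against 661.9 and 443.1 (2.01, adjusted p = 0.0049). The 14 other integrin genes did not pass, and the median of the list was 0.10. Without CD25lo replicate 2 the calls of Itgb1, Itga4 and Itgb3 were lost (adjusted p = 0.156, 0.144 and 0.081), as was that of Itga7 without CD25lo replicate 1 (0.0538), Itgb1 without CD25hi replicate 2 (0.0579) and Itga4 without CD25hi replicate 3 (0.0561).

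**Figure D4:**
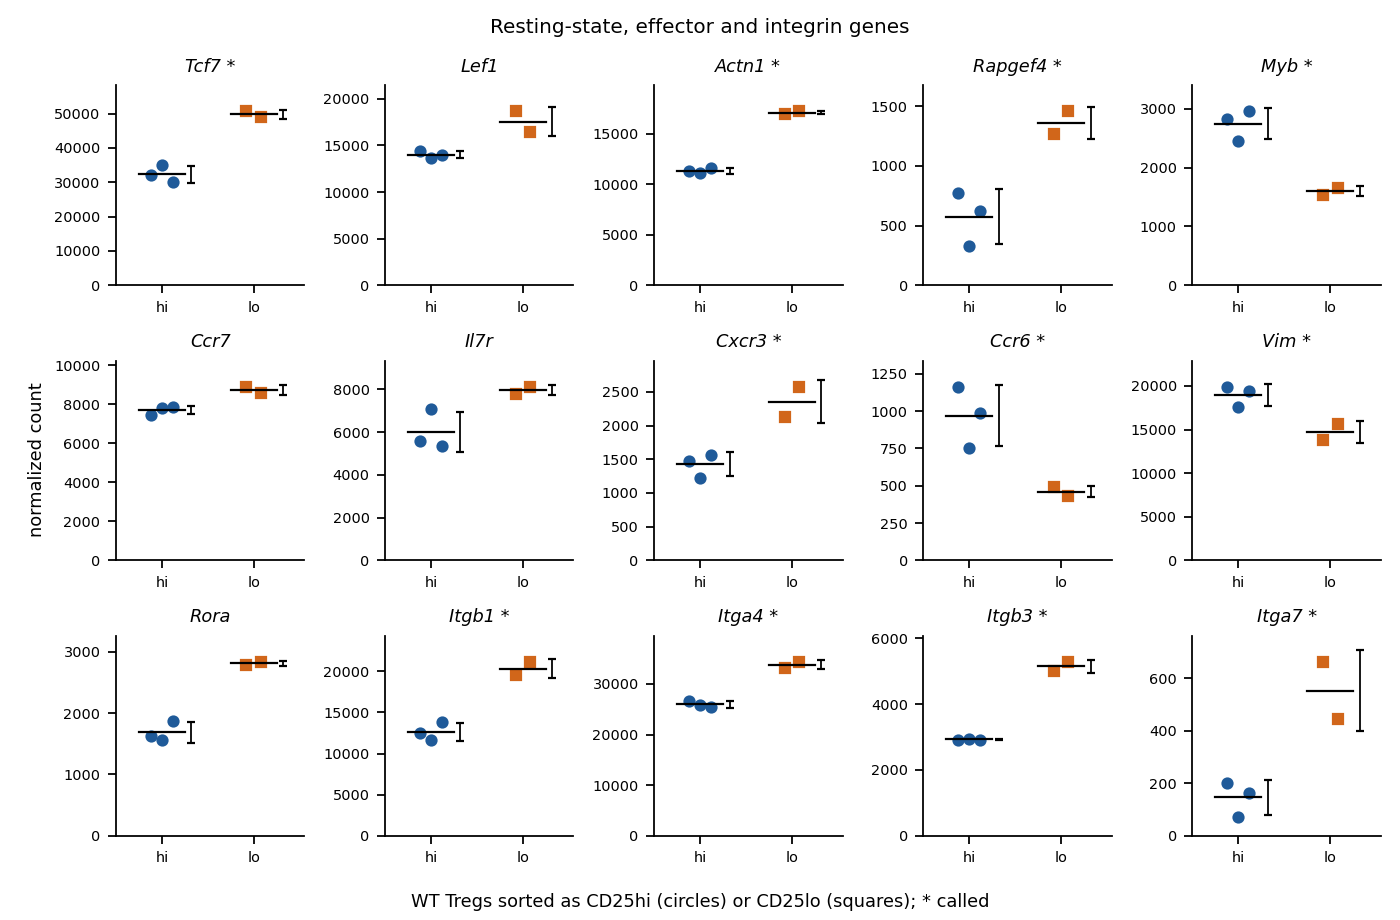
Normalized counts (vertical axes, from 0) in the 3 CD25hi libraries (circles) and 2 CD25lo libraries (squares) for resting-state, effector and integrin genes, with the mean as a line and the SD as a bar. Stars mark called genes, with Tcf7, Actn1, Cxcr3 and the integrins higher and Myb, Ccr6 and Vim lower in CD25lo Tregs, and Ccr7 was not called.

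Of 30 signaling genes of the T cell receptor, 3 were called higher and 0 lower (0 lower with edgeR and DESeq2). This is 10% called, against 1.99% of all genes, and the median log2 fold change was 0.12. Themis, an adaptor of the receptor, was at 2204 to 2299 in CD25hi and at 3656 and 4056 normalized counts in CD25lo libraries (log2 fold change 0.77, SE 0.12, adjusted p = 0.0026), and Malt1, a protease upstream of NF-κB, rose by 0.48. Of 22 genes induced by the receptor, 4 were called lower (18.2%) and 0 higher (0 higher with edgeR and DESeq2). These were Myc, Tnfrsf4, Tnfrsf9 and the nuclear receptor gene Nr4a3, the last at 2747, 3098 and 3490 against 1950 and 1857 normalized counts. Myc was named from these same libraries in earlier work. Of 27 immediate early and heat shock genes, which respond to cell handling, 0 were called with limma (1 at an unadjusted p under 0.05, 0 with edgeR and 0 with DESeq2), but limma on the 5 CD25-sorted libraries alone called 2 higher and 1 lower. Their median log2 fold change was 0.18, and Hspa1b, named after its values were seen, was highest in CD25lo replicate 2, at 10557 against 3405 to 7265 normalized counts in the other libraries, and its part in the results was not tested. Themis was called with any 1 library left out. Malt1 and Nr4a3 were lost without CD25lo replicate 2 (adjusted p = 0.295 and 0.243), CD25hi replicate 2 (0.0873 and 0.0985) or CD25hi replicate 3 (0.0618 and 0.136), Nr4a3 also without CD25lo replicate 1 (0.126) and Malt1 without CD25hi replicate 1 (0.0534).

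Genes of DNA replication and mitosis did not pass singly. Of 41 such genes, 0 were called with limma (11 at an unadjusted p under 0.05, all lower, 0 with edgeR and 4 with DESeq2), and 32 had a log2 fold change below 0, with a median of -0.31. Mcm7, a subunit of the replicative helicase, was at 2040 to 2757 against 1659 and 1601 normalized counts (adjusted p = 0.071 with limma and 0.0205 with DESeq2). Among 20 regulators of the cycle, 3 were called with limma (15%, against 1.99% of all genes). Cdk6, the G1 kinase, fell from 6121, 5067 and 5740 to 3806 and 3304 normalized counts (log2 fold change -0.67, SE 0.10, adjusted p = 0.0018), together with its cyclin Ccnd2. The phosphatase Cdc25b rose from 2330 to 3340 in CD25hi to 3762 and 5250 normalized counts in CD25lo libraries (0.60, adjusted p = 0.035), and its call was lost without CD25hi replicate 2 (adjusted p = 0.0985) or CD25lo replicate 2 (0.392). The survival gene Bcl2l1, which encodes BCL-XL, was the only 1 of 22 apoptosis genes called with limma (-0.72, with 2 called by DESeq2). This is 4.55% of the list, against 1.99% of all genes. The call of Bcl2l1 was lost without CD25hi replicate 1 (adjusted p = 0.0579), CD25hi replicate 3 (0.104) or CD25lo replicate 1. Cdk6 was called with any 1 library left out.

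Among lists of growth and of interferon responses, the share called was 6.67% for ribosome biogenesis, 7.89% for interferon response and 5.26% for glycolysis genes, against 1.99% of all genes. Of 30 ribosome biogenesis genes, Nop16 and Ncl, which encodes nucleolin, were called lower, 26 had a log2 fold change below 0, and the median was -0.22. Nop16 was at 1026, 1219 and 1085 normalized counts in CD25hi and at 471.0 and 485.5 in CD25lo libraries (log2 fold change -1.21, SE 0.17, adjusted p = 0.0017) and was called with any 1 library left out. Of 38 interferon response genes, Gbp3, Gbp7 and Gbp2 were called lower, at log2 fold changes of -0.78, -0.47 and -0.43, and 26 of the 38 had a log2 fold change above 0. These guanylate-binding protein genes are near copies of each other, so that reads may be split between them. Of 19 glycolysis genes Hk2, a hexokinase, was called (-1.59, not called with edgeR), from 364.0 to 402.3 to 217.3 and 71.7 normalized counts, and of 27 genes of cholesterol and fatty acid synthesis 0 were called with limma (2 at an unadjusted p under 0.05, 0 with edgeR and 0 with DESeq2). Ncl was lost without CD25hi replicate 3, CD25lo replicate 1 or CD25lo replicate 2 (adjusted p = 0.0677, 0.0553 and 0.158), Gbp7 without CD25lo replicate 1 (0.109), Gbp2 without CD25hi replicate 2, CD25hi replicate 3, CD25lo replicate 1 or CD25lo replicate 2 (0.101, 0.0616, 0.171 and 0.0967), and Hk2 without CD25hi replicate 1, CD25hi replicate 2, CD25hi replicate 3 or CD25lo replicate 2 (0.0649, 0.0716, 0.0677 and 0.339).

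**Figure D5:**
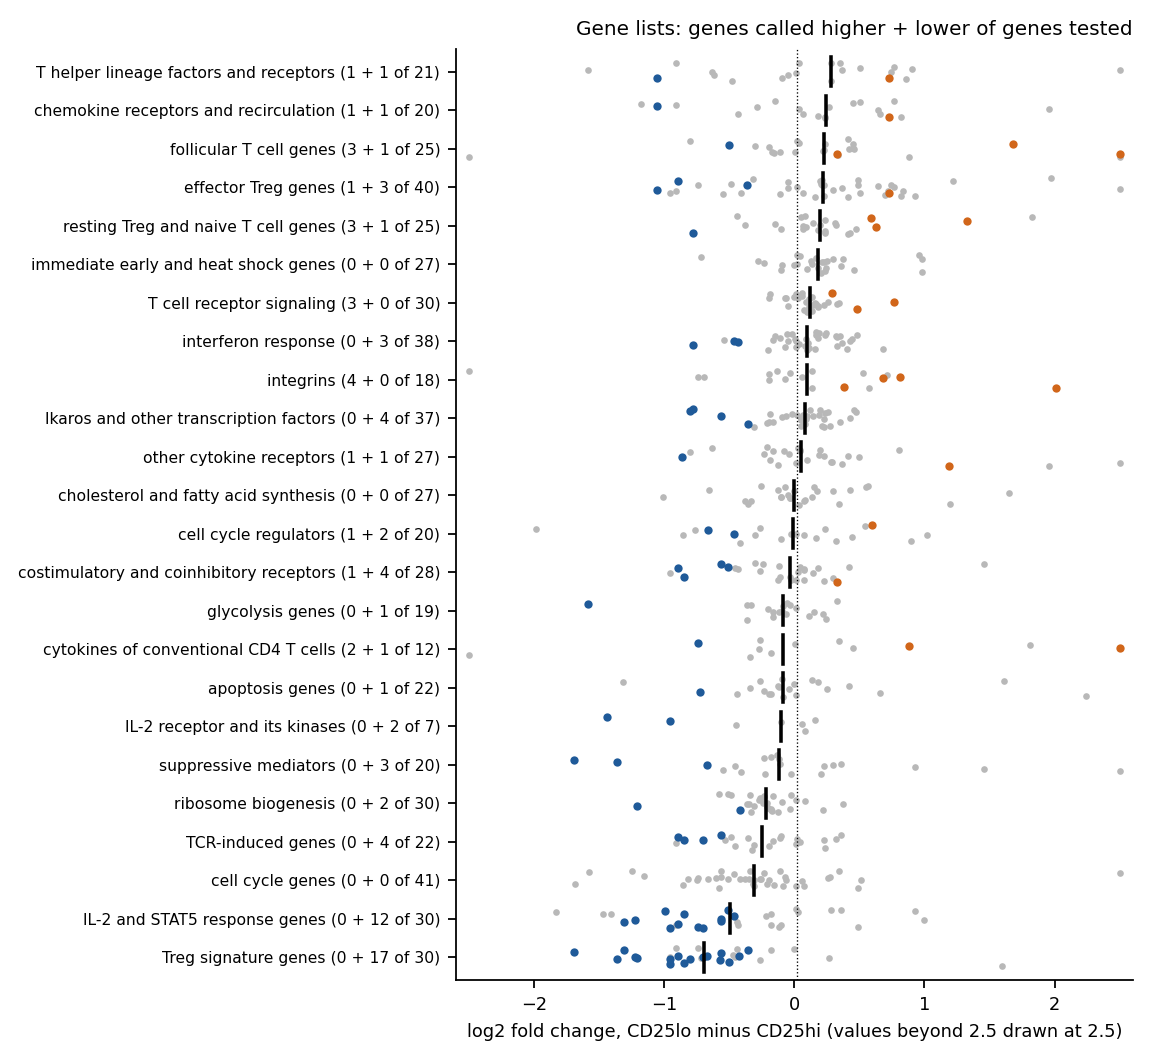
Log2 fold change of CD25lo over CD25hi Tregs (horizontal axis) for the tested members of 24 gene lists (rows, ordered by median), with called genes in orange (higher) or blue (lower), the list median as a black bar and the median of all genes as a dotted line. The Treg signature and the IL-2 and STAT5 lists have the lowest medians, at -0.69 and -0.49, and some genes stand in more than 1 list.

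The bulk WT Tregs, which hold both CD25 levels, offered a further set of values. For 22 of the 24 genes with the largest changes the mean of the 4 bulk WT libraries lay between the means of the CD25hi and the CD25lo libraries, the exceptions being Tnfrsf8 and Penk. These 24 genes were taken for their wide gap between the sorted groups, and the same share was not taken over all genes. Il2ra was at 24206 to 29151, Il2rb at 43632 to 45621 and Tcf7 at 36074 to 37316 normalized counts in bulk WT Tregs, each between the sorted groups in every library. Some genes did not lie between them. Ctla4 was at 13256 to 36410 normalized counts in bulk WT Tregs, with a median of 33206, against at most 16236 in the sorted libraries, and Tnfrsf9 had a mean of 4002 in bulk WT, 3503 in CD25hi and 1888 in CD25lo Tregs. The bulk WT means of Tnfrsf4, Tnfrsf18, Tnfrsf1b, Ikzf2, Plagl1, Nr4a3 and Hk2, all called lower, were also above the CD25hi means. Those of Itgb1 and Il4, called higher, were above the CD25lo means. Bulk and CD25-sorted cells are separate groups in the labels, and whether they were collected together is not given in the sources used here.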

How the data were processed

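FOXP3-YFP+ Tregs of WT mice were sorted as CD25hi (3 libraries) and CD25lo (2 libraries) and sequenced single-end from total RNA. STAR 2.7.2b was used for alignment to GRCm38. The deposited signal is, in each library, the number of reads of a gene over a size factor from DESeq2 1.24.0, rounded to 0.1 (normalized counts). The counter and its strand setting were not given in the sources used here. The authors also deposited variance-stabilized log2 values, and their own comparisons as a log2 and a linear fold (ratio) with p-values, and GC content in percent, none of which were used. Of 55536 genes listed, 48363 have values.

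With limma 3.58.1 (R 4.3.3, trend on mean level, no covariate), 4 group means were fitted to log2(normalized count + 1) of all 14 libraries, so that bulk libraries share in the estimate of the spread. The 13988 genes reaching 10 normalized counts in 2 of the 5 libraries were tested for CD25lo against CD25hi (two-sided, Benjamini-Hochberg). The labels do not tie libraries to animals, and p-values measure the spread between these libraries. Multiplied by the size factors, 100.0% of values gave whole reads within 0.055 normalized counts, and these served edgeR 4.0.16, DESeq2 1.42.0 and limma-voom as alternatives. Other alternatives were 2 pseudocounts, 3 filters, the 5 CD25-sorted libraries alone, a replicate block and each library left out. Scripts were tested on simulated data.

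The comparison, gene lists and rule for named genes were chosen with earlier results of these data known. The rule took the IL-2 receptor and its kinases, the 12 called genes of largest change in each direction with a mean of at least 500 normalized counts and no overlap, up to 6 genes per list with the smallest adjusted p, and 9 genes the study discusses, and those not named are covered by the counts. Promoters are from RefSeq (GRCm38.p6), without chromosome 18. Figures were drawn with matplotlib 3.10.9. Some genes are not reported here.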

Additional observations from a re-analysis of the deposited data

How the results depend on the processing

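In all, 101 genes were called higher and 177 lower in CD25lo Tregs. On the 5 CD25-sorted libraries alone 66 were higher and 94 lower, with 126 of the 278 genes shared, and DESeq2 called 249 higher and 413 lower, with all 278 shared. With the replicate number as a block (replicate block) 89 were higher and 117 lower, with 158 shared. The replicate numbers are not known to mark the same mice, and only 2 are shared. Deviations from the group means correlated at 0.135 between replicates 1 and at -0.0061 between replicates 2 over 5819 genes. Between CD25hi replicate 3 and CD25lo replicate 2, which differ in number, they correlated at 0.138. With 2 CD25lo libraries the deviations of 1 mirror those of the other, so these values cannot show whether libraries are paired. With 1 library left out, 21 to 86 genes were called higher and 76 to 226 lower. The counts moved by over 1.5 times without CD25hi replicate 3 (94 lower), without CD25lo replicate 1 (46 higher) and without CD25lo replicate 2 (21 higher and 76 lower). The latter 2 leave 1 CD25lo library, which is assumed to vary like the other groups, and raised the share of lower calls, as higher calls were 16.9% and 21.6% of all called against 36.3%. limma-voom gave a more even split, with 116 higher and 132 lower. edgeR, the other pseudocounts and the other filters stayed within 1.5 times. Of 84 called genes followed, 0 changed direction under any of the 16 alternatives, and 25 were called under each of them. The kept calls were 57 with the 5 libraries alone, 77 with edgeR, 84 with DESeq2 and 51 with the block. Pdcd1, which was not called, changed sign without CD25lo replicate 1, with log2 fold changes of -0.26 (without CD25hi replicate 1) to 0.01 when 1 library was left out. With 2 CD25lo libraries, a large part of the calls rests on each of them.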

Other observations

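The following groups of genes were put together after the values had been seen, so their counts are a description. Of 31 tested genes of one-carbon, serine and nucleotide synthesis, 7 were called lower in CD25lo Tregs (22.6%, against 1.27% of all genes) and 0 higher with limma (0 higher at an unadjusted p under 0.05, with edgeR and with DESeq2). The other 24 did not pass, 28 of the 31 had a log2 fold change below 0 and the median was -0.33. Besides Shmt1, these were its mitochondrial counterpart Shmt2 (3668 to 3780 normalized counts in CD25hi, 2842 and 2428 in CD25lo libraries), the folate enzyme Mthfd1 (log2 fold change -0.66), the pyrimidine synthesis enzyme Cad (-0.46), Uck2 (-0.39), the proline enzyme Aldh18a1 (-0.54) and the amino acid transporter Slc7a5, at 2716, 2296 and 3196 against 1403 and 1738 normalized counts (-0.80, SE 0.15, adjusted p = 0.012). Without CD25lo replicate 2 the calls of Mthfd1, Shmt2, Cad, Aldh18a1 and Uck2 were lost (adjusted p = 0.053 to 0.226), and without CD25lo replicate 1 those of Slc7a5, Cad, Aldh18a1 and Uck2 (0.109 to 0.212). Without CD25hi replicate 3, Mthfd1, Cad, Aldh18a1 and Uck2 were lost (0.057 to 0.0757), and Aldh18a1 and Uck2 also without CD25hi replicate 1 (0.0733 and 0.0562) or CD25hi replicate 2 (0.113 and 0.117). Of the genes in this group, Shmt1 was called with any 1 library left out.

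Genes of cyclic AMP signaling gave 4 calls of 26 tested (15.4%, against 1.99% of all genes), all higher in CD25lo Tregs. Adcy7, an adenylyl cyclase, was at 10051 to 11220 in CD25hi and at 14734 and 16149 normalized counts in CD25lo libraries (log2 fold change 0.53, SE 0.10, adjusted p = 0.0082, and 0.112 without CD25lo replicate 2), and Hrh2, the histamine H2 receptor, rose by 0.91, with a call that was lost without CD25hi replicate 2, CD25hi replicate 3, CD25lo replicate 1 or CD25lo replicate 2 (adjusted p = 0.0794, 0.0616, 0.156 and 0.0873). Pde3b, which degrades cyclic AMP, and Vipr1, which raises it, thus rose in the same libraries, and the median over the 26 genes was 0.10.

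Besides Tcf7, Axin2, a target of Wnt signaling, was at 2086, 1684 and 1562 in CD25hi and at 3167 and 2778 normalized counts in CD25lo libraries (log2 fold change 0.75, SE 0.14, adjusted p = 0.0086, and 0.072 without CD25lo replicate 1). Tle4, a corepressor that binds TCF1, rose by 0.58 (adjusted p = 0.01, and 0.12 without CD25lo replicate 2). Of 19 such genes 3 were called (15.8%, against 1.99% of all genes), all higher. Of 11 tested genes of the Ifi200 family on chromosome 1, 3 were called higher (27.3%). These were Ifi213, Ifi209 and Ifi208, at log2 fold changes of 0.64, 0.41 and 0.45, whereas Gbp2, Gbp3 and Gbp7 fell. Members of that family are near copies of each other, and their values are uncertain. Without CD25lo replicate 2 these calls were lost (adjusted p = 0.0847 to 0.177), as they were without CD25lo replicate 1 (0.06 to 0.102), and those of Ifi213 without CD25hi replicate 3 (0.0639), of Ifi209 without CD25hi replicate 2 (0.0521), and of Ifi208 without CD25hi replicate 1 (0.0627) or CD25hi replicate 2 (0.0528).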
